A study of Mus musculus with 12 samples.

Results

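The 41 genes followed here encode complement and coagulation factors, their receptors and their membrane-bound regulators. They were taken by symbol from a list of members and matched by Ensembl gene ID in both deposited count tables, where all 41 were found among 21807 gene IDs. Of these, 30 are made in the main by hepatocytes and 11 by macrophages, endothelium, stroma or fat cells (C1qa, C1qb, C1qc, Cfp, Cfd, C3ar1, C5ar1, F3, Tfpi, F13a1 and Thbd), from textbook knowledge. The question put to the data was how both groups of genes stood in livers in which cholangiocarcinoma (CCA, a cancer of bile duct type) had been induced.

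RNA was measured in 12 liver libraries of C57BL/6J mice, 3 in each of 4 groups. NICD1/Akt livers were taken 2 weeks (early stage) or 3 weeks (advanced stage) after hydrodynamic tail vein injection (HTVi), a rapid injection of plasmid solution that brings DNA into part of the hepatocytes. The plasmids encoded the Notch intracellular domain NICD1 (10 µg per mouse), myr-AKT (10 µg per mouse) and the Sleeping Beauty transposase, an enzyme that puts the transgenes into the host genome, and the methods give male mice of 5 weeks of age at injection. Control livers are labelled WT and described as healthy liver, yet their labels too read 2 or 3 weeks post-HTVI, and whether they received an injection is not given in the sources used here. Tissue of all NICD1/Akt samples is labelled as liver with CCA tumor, so livers with tumor were set against normal liver. The study describes the comparison as one of tumors and normal liver tissue. How much of each sample was tumor was not measured here. The promoter that drives the transgenes is not given in the sources used here. In bulk RNA of this kind, fewer cells of a type and less RNA per cell cannot be told apart. Nothing in the sources used here says that the 3 libraries of a group are separate mice; the p-values thus cover the spread from library to library, which may be technical. Total counts ranged from 13136892 to 19594839 per library.

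Complement and coagulation are both cascades of plasma proteases that are made as inactive precursors and activate one another on surfaces. In complement, C1q, mannose-binding lectins or spontaneous C3 turnover start the classical, lectin and alternative pathways, which meet at C3 and end in the membrane attack complex, a pore of C5b to C9. In coagulation, tissue factor outside the vessel or the contact factors start thrombin formation, thrombin cuts fibrinogen to fibrin, factor XIII crosslinks the clot, and thrombomodulin with protein C and protein S holds thrombin formation back. The liver parenchyma is the main source of most of these plasma proteins, while C1q and properdin come largely from macrophages and other myeloid cells, and tissue factor and thrombomodulin are cell surface proteins.

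Counts of the host genes Notch1 and Akt1, which cannot separate transgene from endogenous RNA, served as a check of the labels, and 2 libraries of the early stage stood apart. CPM are counts per 1e+06 of a library size that is multiplied by its TMM factor (trimmed mean of M-values). At 3 weeks Notch1 lay between 324 and 412 CPM in the transgenic livers, against 42.1 to 45.5 CPM in controls. Akt1 lay between 594 and 850 CPM, against 74.5 to 85.3 CPM. The early NICD1/Akt libraries 33, 34 and 35 held, in this order, 100.8, 119 and 202 CPM for Notch1 and 285, 325 and 927 CPM for Akt1. In the library labelled control early 32, Notch1 reached 106 CPM and Akt1 381 CPM, above the 49.1 and 53.8 CPM of Notch1 and the 90.9 and 90.1 CPM of Akt1 in control libraries 30 and 31. Its Akt1 lay above and its Notch1 between those of NICD1/Akt libraries 33 and 34, and its sum of 5 cholangiocyte markers was 1982 CPM, against 68.0 and 66.0 CPM in libraries 30 and 31 and 1139 and 1317 CPM in libraries 33 and 34. These values go against its label; whether the label is wrong was not tested, and every comparison below that uses early controls includes it unless said otherwise. It also had 57.2 CPM of the Y-linked gene Ddx3y, which was at 0 to 0.399 CPM in the other 5 early libraries. Late controls had 120.3 to 126 CPM of Ddx3y and late NICD1/Akt livers 52.2 to 61.2 CPM (log2 fold change -0.99, standard error 0.09). The methods give male mice, so 5 early libraries go against that statement; sex by this gene and stage cannot be told apart outside library 32, which was kept in its labelled group. NICD1/Akt library 35 had the highest Akt1 of all, at 927 CPM, and the lowest hepatocyte marker sum of the early stage (63090 CPM against 101500 to 174700 CPM in the other 5). The sums of 8 hepatocyte markers were 113400 to 116300 CPM in late controls and 27340 to 40560 CPM in late NICD1/Akt livers.

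The sequences below are the promoters of some members that were called between controls or between NICD1/Akt livers of 3 and 2 weeks. They are printed so that the letters next to each start can be seen beside the levels. Among them, only Fga and Fgg were also called for the difference in effect between stages. Fga and Fgg, which lie next to each other, encode the α and γ chains of fibrinogen; C6, C9, C8a and C8b encode parts of the membrane attack complex. Each window holds 300 bases, from 250 before to 50 after the gene's start, read 5′ to 3′ on the gene's strand from RefSeq (build GRCm38.p6), matched by symbol. Capitals mark letters that match a hepatocyte nuclear factor 1 half-site (GTTAAT), a C/EBP site (TTNNGCAA) or a STAT site (TTCNNGGAA) on either strand.
Fga (chr3:83025903-83026202, plus strand): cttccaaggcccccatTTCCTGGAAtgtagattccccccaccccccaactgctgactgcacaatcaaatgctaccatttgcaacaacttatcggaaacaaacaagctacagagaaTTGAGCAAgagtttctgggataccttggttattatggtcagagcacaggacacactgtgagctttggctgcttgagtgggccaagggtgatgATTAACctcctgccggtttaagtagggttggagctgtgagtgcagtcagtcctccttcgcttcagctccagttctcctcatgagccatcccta
Fgg (chr3:83007474-83007773, plus strand): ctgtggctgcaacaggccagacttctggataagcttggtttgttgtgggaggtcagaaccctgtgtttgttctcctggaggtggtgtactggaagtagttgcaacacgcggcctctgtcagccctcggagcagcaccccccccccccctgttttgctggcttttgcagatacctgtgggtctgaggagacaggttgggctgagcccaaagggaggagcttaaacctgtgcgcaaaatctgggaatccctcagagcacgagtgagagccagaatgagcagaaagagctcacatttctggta
C6 (chr15:4726960-4727259, plus strand): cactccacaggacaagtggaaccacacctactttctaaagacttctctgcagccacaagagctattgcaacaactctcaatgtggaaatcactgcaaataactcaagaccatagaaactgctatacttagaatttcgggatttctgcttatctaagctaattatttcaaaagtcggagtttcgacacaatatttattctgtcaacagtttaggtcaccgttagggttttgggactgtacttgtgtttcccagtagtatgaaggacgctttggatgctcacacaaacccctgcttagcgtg
C9 (chr15:6445096-6445395, plus strand): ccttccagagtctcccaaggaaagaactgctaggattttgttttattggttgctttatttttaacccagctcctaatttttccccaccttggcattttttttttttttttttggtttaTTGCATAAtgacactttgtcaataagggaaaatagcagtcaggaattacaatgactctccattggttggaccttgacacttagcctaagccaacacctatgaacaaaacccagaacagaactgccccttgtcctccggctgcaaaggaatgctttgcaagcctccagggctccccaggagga
C8a (chr4:104876349-104876648, minus strand): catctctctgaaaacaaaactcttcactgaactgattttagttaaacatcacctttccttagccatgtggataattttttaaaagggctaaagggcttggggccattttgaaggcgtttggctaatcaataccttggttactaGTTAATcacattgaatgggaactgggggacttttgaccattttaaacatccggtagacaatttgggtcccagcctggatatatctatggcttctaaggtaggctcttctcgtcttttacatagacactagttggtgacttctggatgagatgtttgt
C8b (chr4:104766067-104766366, plus strand): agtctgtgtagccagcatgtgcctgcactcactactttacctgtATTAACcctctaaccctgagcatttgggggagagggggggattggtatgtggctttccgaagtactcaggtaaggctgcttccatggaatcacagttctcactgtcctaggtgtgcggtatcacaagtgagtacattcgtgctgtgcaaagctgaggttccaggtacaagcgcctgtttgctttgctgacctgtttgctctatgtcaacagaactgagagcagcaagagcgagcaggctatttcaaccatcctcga
Fga held all 3 motifs, at 234 (STAT), 135 (C/EBP) and 43 (HNF1) bases before the start. C9 held a C/EBP match 132 bases before the start, and C8a and C8b held an HNF1 half-site at 107 and 206 bases before theirs. No match to these 3 motifs was found in the windows of Fgg and C6.

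Windows were found for 32 of the 41 members, 23 of the hepatocyte-made genes and 9 of the others. Of the 23, 6 held the HNF1 half-site (26.1%; C1ra, C8a, C8b, F2, Fga and F13b), where 8.24% of 27025 genes did. The C/EBP motif was in 8 of 23 (34.8%; 12.2% of all genes), namely C1ra, C1s1, C3, C9, Klkb1, F11, F9 and Fga, and the STAT motif was in 5 (21.7%; 5.6% of all genes), namely C1ra, Masp2, F9, Fga and Pros1. An HNF4 motif (CAAAGTNCA) was in F9 alone, with 1.64% of all genes, and a FOXA motif (TGTTTAC) in Klkb1 and F11, with 4.05%. Among the 9 windows of genes made by other cells, Cfp held the HNF1 half-site and none held the other 4 motifs. The motifs were chosen after the expression values were seen and overlap in no window printed above; a match is a description of letters only.

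At 3 weeks, hepatocyte-made factors were lower in NICD1/Akt livers, while receptors, tissue factor and the A subunit of factor XIII were higher. Of the 40 members with enough counts to be tested, 31 were lower and 4 higher at an adjusted p under 0.05 (edgeR, Benjamini-Hochberg over 13408 genes), where 33.1% of all genes tested were lower (4432) and 38.9% higher (5218). Among hepatocyte-made members, 29 of 30 were lower, with a median log2 fold change of -1.04 (all genes tested, 0.06); with library size as the only scaling, which moved the median of all genes up by 0.70 (9076 genes higher and 1287 lower), 15 were lower and 2 (C4b and Pros1) higher, and 11 of all 40 members were higher. Among members made by other cells, the share of higher genes was near that of all genes tested (38.9%). The 10 tested ones split into 4 higher (C3ar1, C5ar1, F3 and F13a1), 2 lower (Thbd and Cfp) and 4 not called (C1qa, C1qb, C1qc and Tfpi). The remaining one, Cfd (factor D, made mainly by fat cells), had 0 or 1 counts in each library, where a floor of 3 counts corresponds to 0.153 to 0.228 CPM; the adipocyte markers Adipoq, Plin1 and Lep were at 0 to 0.0721 CPM. In 36 of the 40 the 3 NICD1/Akt libraries did not overlap the 3 controls, against 77.8% of all genes tested.

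**Figure D1:**
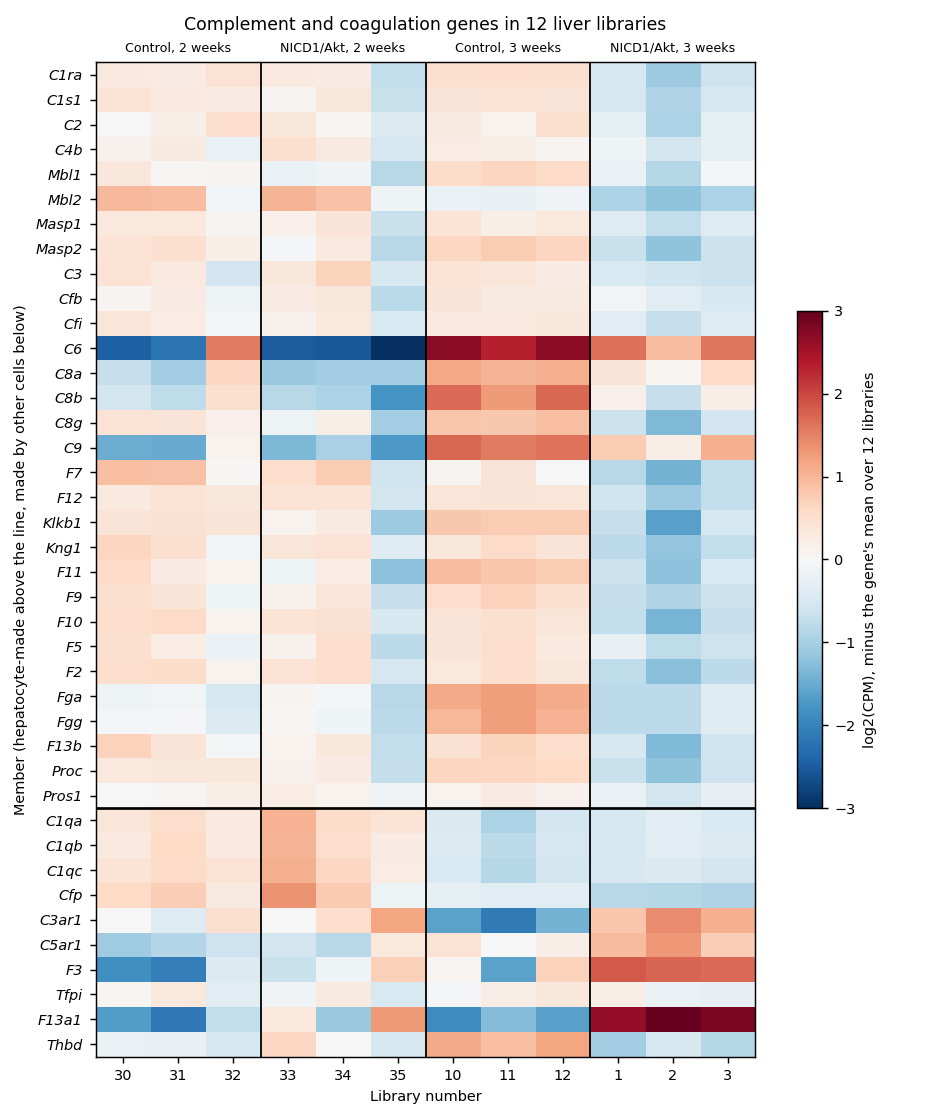
Levels of the 40 tested members (rows; 30 hepatocyte-made above the line, 10 made by other cells below) in 12 libraries (columns, numbered, in 4 groups of 3). Color gives log2 CPM minus the gene's own mean over the 12 libraries, from blue (below) to red (above). Most hepatocyte-made rows are blue in NICD1/Akt libraries 1, 2, 3 and 35, and C6, C8a, C8b and C9 lie above their mean in library 32 and in the late libraries, except C8b in library 2.

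The fall was spread over both cascades and was uneven between libraries. Hepatocyte-made complement genes had a median log2 fold change of -0.79 (15 of 16 lower) and hepatocyte-made coagulation genes one of -1.20 (14 of 14 lower). Summed over the 30 genes, these RNAs came to 51450 to 55660 CPM in late controls and 19020 to 23870 CPM in late NICD1/Akt livers. CPM throughout are scaled by TMM factors over all 12 libraries, while fold changes at 3 and 2 weeks rest on the 6 libraries of the stage. A ratio of CPM can thus differ from the fold change beside it. The factors were 0.781 to 0.797 in late controls and 1.35 to 1.49 in late NICD1/Akt livers, so the distance between these sums rests in part on the scaling. The fall ran from -1.68 (Fga) to -0.36 (C4b), and 17 of 30 were at -1 or lower. NICD1/Akt library 2 was the lowest of the 3 for 28 of the 30, with a median ratio to the mean of the controls of 0.347, against 0.506 and 0.481 in libraries 1 and 3. Library 2 also had the lowest hepatocyte marker sum (27340 CPM) and the highest Notch1 (412 CPM) and Akt1 (850 CPM) of the late stage; the part of these in the result was not tested.

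**Figure D2:**
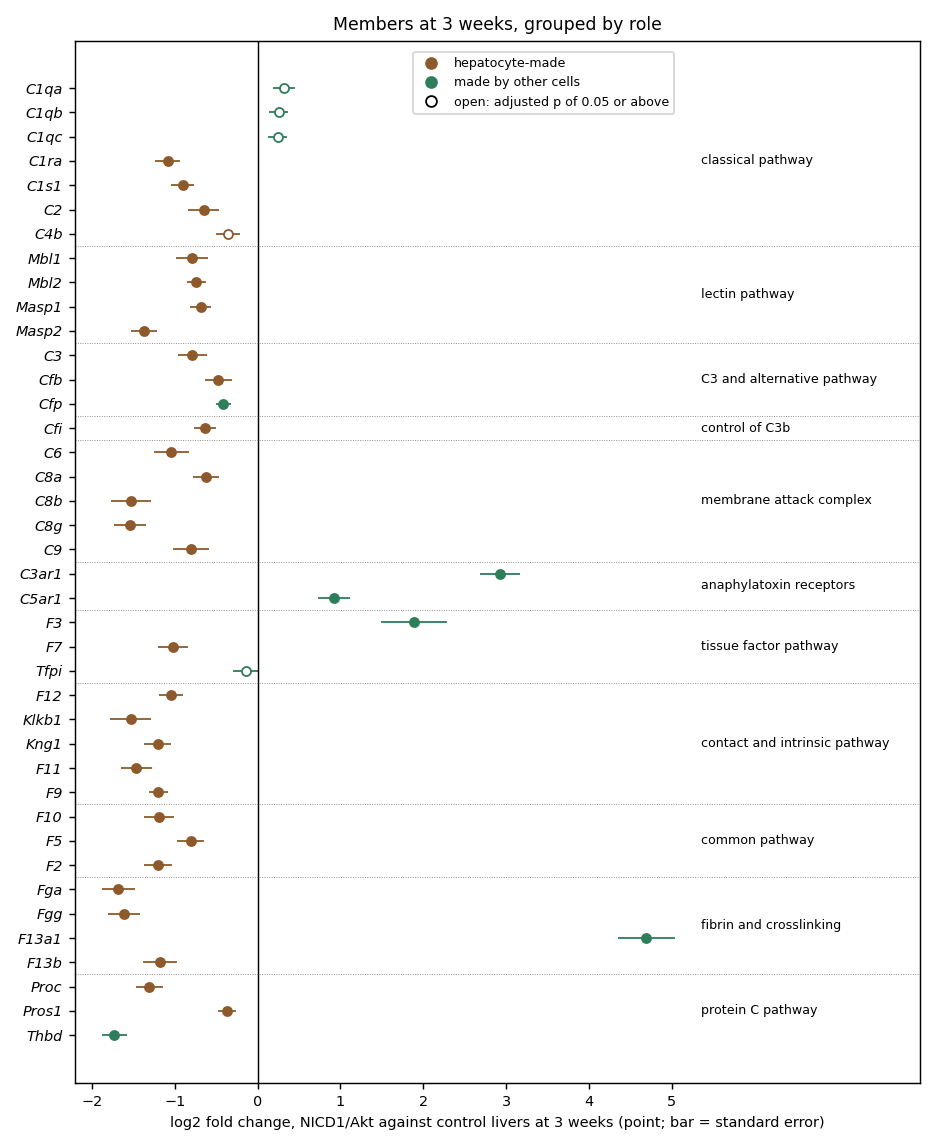
Log2 fold change of the 40 tested members in NICD1/Akt against control livers at 3 weeks (points, 3 libraries each; bars, standard error; TMM scaling), grouped by role, with hepatocyte-made genes in brown and genes made by other cells in green and open points for an adjusted p of 0.05 or above. Hepatocyte-made genes lie between -1.68 and -0.36, and C3ar1, C5ar1, F3 and F13a1 between 0.92 and 4.69. With library size as the only scaling, C2, C4b, Masp1, Cfb, Cfp, Cfi, C8a, Tfpi and Pros1 had a positive sign.

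In the classical pathway, the proteases C1ra, C1s1 and C2 were lower at 3 weeks, and C4b and the C1q chains were not called. C1ra (ENSMUSG00000055172.11), the first protease of C1, was at 152, 102 and 142 CPM with NICD1/Akt against 303, 309.9 and 301 CPM in controls (log2 fold change -1.09, standard error 0.15, adjusted p = 0.000286). C1s1 (ENSMUSG00000038521.18), the protease that C1r cuts, was at 303, 226 and 301 CPM with NICD1/Akt against 556, 575 and 559 CPM in controls (-0.91, standard error 0.14, adjusted p = 0.000416). The groups did not overlap for either gene (as in 77.8% of all genes tested), and NICD1/Akt library 2 was lowest for both. C2, the protease part of the classical C3 convertase, was at 19.2, 12 and 19.1 CPM with NICD1/Akt against 27.9, 25.1 and 32.6 CPM in controls (-0.65, standard error 0.19, adjusted p = 0.014). The call of C2 was lost without control library 12 (adjusted p = 0.0535), and its sign turned with library size alone (0.04), which also ended the call of C1s1 (-0.21, adjusted p = 0.125). C4b, a gene of the thioester protein C4, was at 1363, 1018 and 1233 CPM with NICD1/Akt against 1743, 1711 and 1586 CPM in controls and was not called (-0.36, standard error 0.15, adjusted p = 0.0532), although its groups did not overlap; with library size alone it had 0.34. Reads of C4b and its near copy C4a, and of C1ra and C1s1 and their copies C1rb and C1s2, may be shared in counting.

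At 2 weeks these 4 genes were lowest in NICD1/Akt library 35, while libraries 33 and 34 lay within the controls or on either side of them. C1ra at 2 weeks stood at 266, 257 and 130.2 CPM against 265, 259 and 295 CPM, in the order of NICD1/Akt libraries 33, 34 and 35 and then libraries 30, 31 and 32, labelled control, which all early values below keep. C1s1 at 2 weeks stood at 453, 537 and 268 CPM against 566, 522 and 505 CPM. The library labelled control early 32 was not low for C1ra. C2 at 2 weeks stood at 29.5, 24 and 17.6 CPM against 22.9, 26.1 and 33.2 CPM. C4b at 2 weeks stood at 2093, 1785 and 1054 CPM against 1632, 1806 and 1299 CPM.

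The 3 chains of C1q, the recognition molecule of the classical pathway, are encoded side by side. C1qa (ENSMUSG00000036887.6) was at 54.2, 60.6 and 55.5 CPM with NICD1/Akt against 56.8, 39.5 and 52 CPM in controls at 3 weeks (0.32, standard error 0.13, adjusted p = 0.0607). C1qb was at 41.3, 47.3 and 44.4 CPM with NICD1/Akt against 44.9, 34.3 and 41.7 CPM in controls (0.26, standard error 0.12, adjusted p = 0.076). C1qc was at 45.1, 47.1 and 43.5 CPM with NICD1/Akt against 46.2, 34.9 and 43.2 CPM in controls (0.25, standard error 0.11, adjusted p = 0.0817). Control library 11 was the lowest late library for each chain, and the highest control lay above the lowest NICD1/Akt library. All 3 were called higher with upper quartile factors (0.48, 0.41 and 0.40) and with library size alone (1.03, 0.96 and 0.95), and against all 6 controls the values were -0.41, -0.43 and -0.52. C1qa at 2 weeks stood at 157, 111 and 100.6 CPM against 98.8, 111 and 93.9 CPM. C1qb at 2 weeks stood at 119, 85.2 and 70.1 CPM against 73.1, 90.5 and 72.5 CPM. C1qc at 2 weeks stood at 133, 97.4 and 74.2 CPM against 83.7, 94.5 and 85.2 CPM. Library 33 was highest for each, and the early libraries lay above all late ones.

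In the lectin pathway, all 4 members were lower at 3 weeks, with no overlap between groups (as in 77.8% of all genes tested). Masp2, the protease that cuts C4 and C2 when lectins bind sugars, was at 143, 97.6 and 146 CPM with NICD1/Akt against 349, 383 and 355 CPM in controls (log2 fold change -1.37, standard error 0.16, adjusted p = 0.000109). Mbl2, one of the mannose-binding lectins, was at 177, 146 and 173 CPM with NICD1/Akt against 295, 290.3 and 316 CPM in controls (-0.74, standard error 0.11, adjusted p = 0.000429). Masp1, the protease that activates MASP-2, was at 172, 135 and 172 CPM with NICD1/Akt against 299, 259.8 and 279 CPM in controls (-0.69, standard error 0.13, adjusted p = 0.00127). With library size alone Masp1 had 0.01, and the calls of Mbl1 (-0.10) and Mbl2 (-0.04) were lost. Mbl1, the second lectin, fell as well (-0.79, standard error 0.19). Masp2 at 2 weeks stood at 223, 276 and 127 CPM against 301, 316 and 261 CPM. Masp1 at 2 weeks stood at 248, 296 and 143 CPM against 281, 281 and 238 CPM. Library 35 was lowest for both genes. Mbl2 at 2 weeks stood at 684, 623 and 309 CPM against 661, 639 and 320.4 CPM, so that library 32 had about as little as library 35, and the other 4 early libraries lay above every late one.

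C3, the protein at which the pathways meet, and the genes of the alternative pathway and its control were lower at 3 weeks too. C3 (ENSMUSG00000024164.16) was at 6391, 5841 and 5627 CPM with NICD1/Akt against 11800, 11310 and 10360 CPM in controls (log2 fold change -0.79, standard error 0.17, adjusted p = 0.00326). Cfb, the protease of the alternative C3 convertase, was at 5.64, 4.79 and 4.29 CPM with NICD1/Akt against 7.76, 7.22 and 7.25 CPM in controls (-0.47, standard error 0.17, adjusted p = 0.0303). The Cfb call was lost in 8 of 16 alternatives, among them without control library 10 or 12 and without NICD1/Akt library 2 or 3 (adjusted p = 0.0571 to 0.093 for these 4). Cfi, the protease that inactivates C3b, was at 556, 427 and 532 CPM with NICD1/Akt against 842, 844 and 874 CPM in controls (-0.64, standard error 0.13, adjusted p = 0.00245). Properdin (Cfp), which stabilises the alternative convertase and comes from myeloid cells, was at 15.9, 15.8 and 15.1 CPM with NICD1/Akt against 23, 22.4 and 22.3 CPM in controls (-0.41, standard error 0.09, adjusted p = 0.0033). With library size as the only scaling, Cfb, Cfi and Cfp had positive values (0.23, 0.06 and 0.29), that of Cfp was called, and the call of C3 was lost (-0.08, adjusted p = 0.6). In the fit of all 12 libraries the call of Cfp was lost (-0.53, adjusted p = 0.119). C3 at 2 weeks stood at 11070, 13890 and 6326 CPM against 11940, 10740 and 5867 CPM, with library 32, labelled control, lowest. Cfb at 2 weeks stood at 7.04, 7.55 and 3.42 CPM against 6.32, 7.07 and 5.33 CPM. Groups overlapped for each of the 4 genes at this stage. Cfi at 2 weeks stood at 756, 859 and 506 CPM against 891, 806 and 662 CPM. Cfp at 2 weeks stood at 71.8, 48.8 and 25.5 CPM against 42.7, 47.4 and 34.2 CPM, from 25.5 CPM in library 35 to 71.8 CPM in library 33.

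The membrane attack complex genes were lower in NICD1/Akt livers at 3 weeks, with no overlap in any of the 5 (as in 77.8% of all genes tested). Of the 5, 4 also stood out in the library labelled control early 32. C8g, the γ chain of C8, was at 132, 83 and 141 CPM with NICD1/Akt against 369.9, 365 and 391 CPM in controls (log2 fold change -1.54, standard error 0.19, adjusted p = 0.00014). C8b, the β chain, was at 347, 192 and 355 CPM with NICD1/Akt against 1018, 757 and 1021 CPM in controls (-1.53, standard error 0.25, adjusted p = 0.000609). C6, which binds C5b, was at 453, 275 and 438 CPM with NICD1/Akt against 941, 729 and 933 CPM in controls (-1.04, standard error 0.21, adjusted p = 0.00195). Values of C8a and C9 are given because of their levels in library 32 and were chosen after they had been seen. C8a, the α chain, was at 862, 683 and 972 CPM with NICD1/Akt against 1474, 1333 and 1407 CPM in controls (-0.62, standard error 0.15, adjusted p = 0.00621). C9, the pore-forming unit, was at 1184, 802 and 1481 CPM with NICD1/Akt against 2323, 2068 and 2181 CPM in controls (-0.80, standard error 0.22, adjusted p = 0.00941). Against all 6 controls the calls of C6 (-0.41, adjusted p = 0.761), C8a (-0.24, adjusted p = 0.699), C8b (-1.02, adjusted p = 0.178) and C9 (-0.17, adjusted p = 0.861) were lost. In the fit of all 12 libraries those of C6 (-1.16, adjusted p = 0.25), C8a (-0.74, adjusted p = 0.0818) and C9 (-0.92, adjusted p = 0.0698) were lost, and with library size alone those of C6 (-0.35), C8a (0.07) and C9 (-0.11).

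At 2 weeks, C6 ranged from 10.1 to 31.6 CPM in 5 libraries, whereas library 32, labelled as control, had 428 CPM. C8a at 2 weeks stood at 302, 320.1 and 320.2 CPM against 408, 319.7 and 1017 CPM. C8b at 2 weeks stood at 175, 162 and 91.6 CPM against 213, 185 and 433 CPM. The last of these, library 32, was highest for both. C9 at 2 weeks stood at 276, 361 and 213 CPM against 252, 246 and 758 CPM, again with library 32 highest. Relative to the mean of control libraries 30 and 31, library 32 had ratios of 14.7 for C6, 3.04 for C9, 2.79 for C8a and 2.17 for C8b. C8g did not share this (0.836), with 186, 236 and 103 CPM against 282, 269.8 and 230.5 CPM. Library 32 and the 6 late libraries are those with Ddx3y at 52.2 CPM or more. C4a, which is no member and encodes the sex-limited protein of mice, had 108 CPM in library 32, 2.44 to 6.06 CPM in the other early libraries and 62.9 to 295 CPM in late ones.

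**Figure D3:**
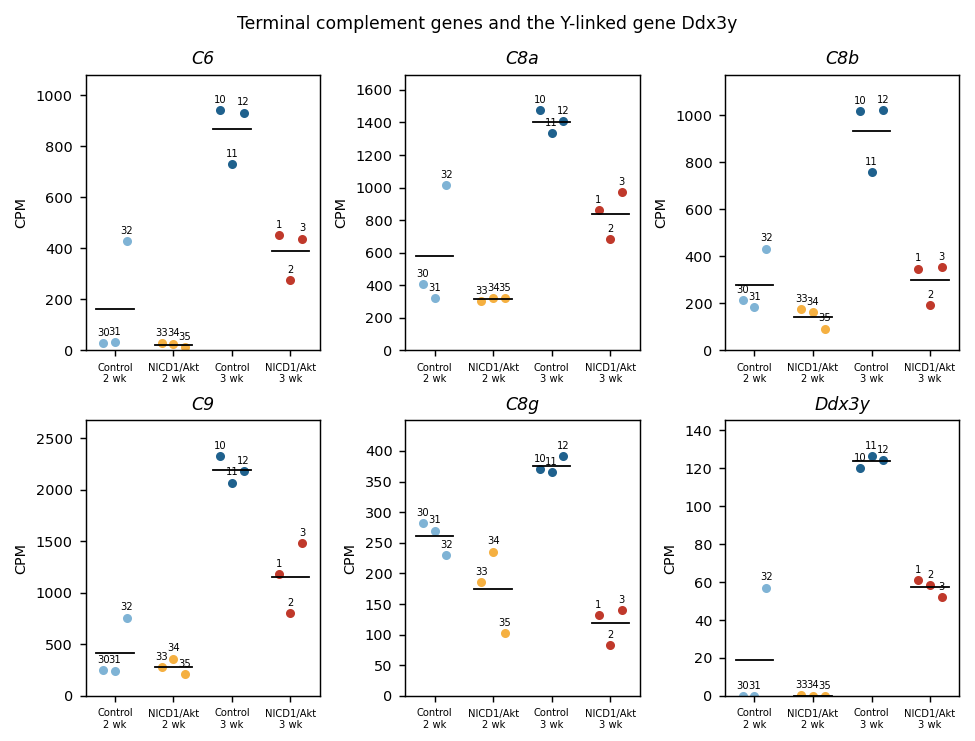
CPM of 5 membrane attack complex genes and of the Y-linked gene Ddx3y in each library (points with library numbers; bars, group means of 3 libraries; linear axes from 0). Library 32, labelled control at 2 weeks, lies above the other early libraries for C6, C8a, C8b, C9 and Ddx3y, and below libraries 30 and 31 for C8g.

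The receptors of the anaphylatoxins C3a and C5a, carried by myeloid cells, were higher at 3 weeks. C3ar1 (ENSMUSG00000040552.9) was at 10.8, 16.2 and 12.6 CPM with NICD1/Akt against 1.98, 1.39 and 2.25 CPM in controls (log2 fold change 2.92, standard error 0.24, adjusted p = 1.49e-05; 7.59-fold). C5ar1 (ENSMUSG00000049130.7) was at 10.2, 13.1 and 8.8 CPM with NICD1/Akt against 7.07, 5.22 and 6.08 CPM in controls (0.92, standard error 0.20, adjusted p = 0.00271; 1.9-fold). The groups did not overlap (as in 77.8% of all genes tested). Both calls held in all 16 alternatives of test, scaling, filter, controls and left-out libraries. C3ar1 at 2 weeks stood at 5.98, 8.66 and 13.7 CPM against 6.12, 4.61 and 8.42 CPM. C5ar1 at 2 weeks stood at 3.59, 2.96 and 6.61 CPM against 2.53, 2.88 and 3.4 CPM. Library 35 was the highest early library for both receptors, and late controls had less C3ar1 than any other library.

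Tissue factor rose at 3 weeks while factor VII, which it binds, fell. F3 (ENSMUSG00000028128.14), the gene of tissue factor, the starter of coagulation, was at 31.3, 29.5 and 28.7 CPM with NICD1/Akt against 9.14, 2.87 and 14.1 CPM in controls (log2 fold change 1.89, standard error 0.39, adjusted p = 0.00253; 3.7-fold), with the controls spread more widely than the NICD1/Akt livers. F7, the protease that works with tissue factor, was at 48.6, 32.5 and 52 CPM with NICD1/Akt against 92.4, 114 and 88.4 CPM in controls (-1.03, standard error 0.18, adjusted p = 0.00101), a call lost with library size alone (-0.33, adjusted p = 0.0793). Tfpi, the inhibitor of this pair, was at 13.6, 10.6 and 10.2 CPM with NICD1/Akt against 11.8, 13.9 and 15.4 CPM in controls and was not called (-0.14, standard error 0.16, adjusted p = 0.452). The groups of Tfpi overlapped, and its sign turned with upper quartile factors (0.01) and with library size alone (0.56). F3 at 2 weeks stood at 5.51, 8.06 and 14.5 CPM against 2.46, 2.09 and 6.57 CPM, lowest in control libraries 30 and 31. F7 at 2 weeks stood at 125, 148 and 57.9 CPM against 162, 159 and 89.4 CPM. Library 32 lay between library 35 and controls 30 and 31 for both genes. Tfpi at 2 weeks stood at 11.4, 14.6 and 8.81 CPM against 12.7, 15 and 9.81 CPM.

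All 5 members of the contact and intrinsic pathway were lower at 3 weeks, and all 5 calls held in the 16 alternatives. Their groups did not overlap (as in 77.8% of all genes tested). F9, the protease whose loss causes hemophilia B, was at 118, 104 and 125 CPM with NICD1/Akt against 282, 313 and 272 CPM in controls (log2 fold change -1.20, standard error 0.11, adjusted p = 3.17e-05). F11, which activates factor IX, was at 63.6, 42.2 and 72.6 CPM with NICD1/Akt against 188, 177 and 169 CPM in controls (-1.46, standard error 0.18, adjusted p = 0.000158). Kng1, the source of bradykinin, was at 1026, 769 and 1052 CPM with NICD1/Akt against 2213, 2599 and 2315 CPM in controls (-1.20, standard error 0.16, adjusted p = 0.000237). Kng1 has a near copy, Kng2, which was also lower (-0.80), and their reads may be shared. F12, which starts the contact pathway, was at 316, 224 and 287 CPM with NICD1/Akt against 612, 622 and 617 CPM in controls (-1.04, standard error 0.14, adjusted p = 0.000243). Klkb1, plasma prekallikrein, fell too (-1.53, standard error 0.25). Of these genes, library 35 had the lowest early level for each. F9 at 2 weeks stood at 214, 248 and 119.5 CPM against 272, 255 and 177 CPM. F11 at 2 weeks stood at 90.3, 115 and 42.1 CPM against 149, 118 and 106 CPM. Library 32 was the lowest of the 3 libraries labelled control for both. Kng1 at 2 weeks stood at 2249, 2355 and 1337 CPM against 2732, 2448 and 1653 CPM. F12 at 2 weeks stood at 632, 638 and 324 CPM against 587, 632 and 600.0 CPM.

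All 3 members of the common pathway were lower at 3 weeks. The lowest control lay above the highest NICD1/Akt library for each, where 77.8% of all genes tested had no overlap. F10, the protease that cuts prothrombin, was at 226, 144 and 236 CPM with NICD1/Akt against 496, 524 and 483 CPM in controls (log2 fold change -1.19, standard error 0.18, adjusted p = 0.000493). F2, prothrombin itself, was at 893, 634 and 874 CPM with NICD1/Akt against 1902, 2158 and 1931 CPM in controls (-1.20, standard error 0.17, adjusted p = 0.000255). F5, the cofactor of factor Xa, was at 500.0, 344 and 383 CPM with NICD1/Akt against 769, 850.3 and 716 CPM in controls (-0.81, standard error 0.16, adjusted p = 0.00192). NICD1/Akt library 2 was lowest for all 3, and with library size alone the call of F5 was lost (-0.11, adjusted p = 0.484). F10 at 2 weeks stood at 505, 515 and 270.3 CPM against 545, 566 and 406 CPM. F2 at 2 weeks stood at 2043, 2187 and 1076 CPM against 2172, 2204 and 1624 CPM. F5 at 2 weeks stood at 640.5, 839 and 338 CPM against 814, 686 and 518 CPM. Library 35 was lowest for each of these, followed by library 32, labelled control, and libraries 33 and 34 lay within the range of the controls except for F5 in library 34, which lay above it.

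The fibrin genes held both the largest fall of a hepatocyte-made member and the largest rise of any member at 3 weeks. Fga (ENSMUSG00000028001.17) was at 3848, 3847 and 5157 CPM with NICD1/Akt against 14490, 15940 and 14350 CPM in controls (log2 fold change -1.68, standard error 0.20, adjusted p = 0.000118). Fgg (ENSMUSG00000033860.14) was at 2403, 2399 and 3194 CPM with NICD1/Akt against 8282, 9878 and 8448 CPM in controls (-1.62, standard error 0.19, adjusted p = 0.00011). In both chains NICD1/Akt library 3 was highest of its group and libraries 1 and 2 were alike. F13a1 (ENSMUSG00000039109.18), the catalytic A subunit of factor XIII, which macrophages and platelet precursors make, was at 8.03, 13.9 and 9.13 CPM with NICD1/Akt against 0.345, 0.522 and 0.417 CPM in controls (4.69, standard error 0.35, adjusted p = 8.29e-06; 25.9-fold). The late controls held 4 to 6 reads of F13a1 and the late NICD1/Akt livers 196 to 377, with library 2 highest. F13b, the hepatocyte-made carrier subunit, fell (-1.18, standard error 0.20). Fga at 2 weeks stood at 7012, 6356 and 3732 CPM against 5974, 6230 and 4626 CPM, below late controls in every library. Fgg at 2 weeks stood at 4234, 3784 and 2391 CPM against 4011, 3996 and 3077 CPM. F13a1 at 2 weeks stood at 1.59, 0.592 and 3.11 CPM against 0.399, 0.288 and 0.772 CPM, with library 35 highest.

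All 3 members of the protein C pathway, which limits thrombin formation, were lower at 3 weeks. Their groups did not overlap (as in 77.8% of all genes tested). Thbd (ENSMUSG00000074743.5), thrombomodulin of the endothelium, was at 11.3, 16.6 and 12.7 CPM with NICD1/Akt against 51, 43.4 and 52.3 CPM in controls (log2 fold change -1.73, standard error 0.15, adjusted p = 2.26e-05). Proc, protein C, was at 262, 181 and 268 CPM with NICD1/Akt against 646, 639 and 627 CPM in controls (-1.31, standard error 0.16, adjusted p = 0.00014). Pros1, its cofactor protein S, was at 57.6, 44.8 and 55.5 CPM with NICD1/Akt against 71.2, 78.4 and 72.2 CPM in controls (-0.37, standard error 0.11, adjusted p = 0.0164). The calls of Thbd and Proc held in the 16 alternatives, while that of Pros1 was lost with upper quartile factors (-0.22) and turned with library size alone (0.33). Thbd at 2 weeks stood at 35.6, 22.9 and 16 CPM against 20.2, 19.8 and 16.5 CPM. Proc at 2 weeks stood at 452, 489 and 252 CPM against 519, 529.5 and 523 CPM. Pros1 at 2 weeks stood at 76, 71.1 and 61.4 CPM against 66.3, 67.1 and 74.8 CPM. Thbd was highest in NICD1/Akt library 33 among early libraries, still below every late control.

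Other genes of both cascades, outside the members, were mostly lower at 3 weeks, when 33.1% of all genes tested were lower and 38.9% higher. Of 21 tested further complement genes, 12 were lower and 5 higher (median log2 fold change -0.82). Colec10, a collectin, and Fcna, a ficolin, both of the lectin pathway, were lower (-1.47, standard error 0.15, and -0.97, standard error 0.12). The 5 higher genes were Itgam and Itgax, subunits of complement receptors 3 and 4 (2.96, standard error 0.29, and 3.19, standard error 0.22), their partner Itgb2, Clu and Cr2. Of 18 further coagulation genes, 14 were lower and 4 higher (median -1.04). The 4 higher genes were F2rl1 and F2r, which encode protease-activated receptors (8.18, standard error 0.39, and 1.75, standard error 0.12), Vwf, the gene of von Willebrand factor (2.48, standard error 0.17), and the protein C receptor gene Procr. Mcfd2, which helps to export factors V and VIII from the endoplasmic reticulum, was lower (-1.08, standard error 0.10).

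Markers of several cell types moved beside these genes at 3 weeks, when 33.1% of all genes tested were lower and 38.9% higher. Of 8 hepatocyte markers 7 were lower (median -1.64), and of 9 hepatocyte transcription factor genes 8 were lower, such as Cebpb (-1.91) and Hnf4a (-1.61). Hnf4a is in both of these lists. Of 8 acute phase genes 2 were higher and 2 lower. All 7 monocyte and macrophage markers, with Itgam from the complement list above among them, were higher. Their summed levels were 311 to 465 CPM against 101.4 to 139.7 CPM. Beside this stood the rise of C3ar1, C5ar1 and F13a1 and the fall of Cfp. All 5 Kupffer cell markers were lower (94.7 to 114 CPM against 189 to 262 CPM), beside C1q chains that were not called. Of 7 endothelial markers 3 were lower (Stab2, Clec4g and Oit3), 1 was higher (Cdh5), and Pecam1, Kdr and Lyve1 were not called. Their sums were 227.9 to 291 CPM against 345 to 396 CPM, beside the fall of Thbd and the rise of Vwf and Procr. Of 4 megakaryocyte and platelet markers 2 had enough counts to be tested, with 1 lower and sums of 2.14 to 4.55 CPM against 4.57 to 6.33 CPM, beside the rise of F13a1. The 4 erythroid markers were lower, neutrophil markers were not called (2 of 4 tested), 5 of 5 cholangiocyte markers and 4 of 7 stellate cell and fibroblast markers were higher. The part of any of these cell types in the levels of the members was not tested.

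At 2 weeks, no member passed the adjusted threshold in edgeR, DESeq2, edgeR's likelihood ratio test or limma-voom, where 0.00% of 13041 genes did in edgeR. At an unadjusted p under 0.05 there were 3 members in edgeR (C6, F3 and F13a1), where 8.59% of all genes were, 5 in DESeq2, 4 in the likelihood ratio test and 1 in limma-voom. For F13a1 the log2 fold change was 1.89 (standard error 0.71, unadjusted p = 0.035 in the edgeR fit), F3 of 1.36 (standard error 0.56, unadjusted p = 0.0471 in the edgeR fit) and C6 of -3.004 (standard error 1.16, unadjusted p = 0.0379 in the edgeR fit). Without the library labelled control early 32, F3 was at 2.06 (standard error 0.495, adjusted p = 0.195 in edgeR) and F13a1 at 2.38 (standard error 0.854, adjusted p = 0.249). C6 then had -0.53 (standard error 0.38, adjusted p = 0.471), so none of these genes was called.

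Among early libraries, NICD1/Akt library 35 stood apart from the other 5 in the hepatocyte-made genes. Relative to the mean of control libraries 30 and 31, the median ratio over the 30 genes was 0.885 in library 33, 0.952 in library 34 and 0.492 in library 35, and 0.816 in the library labelled control early 32. Library 35 lay below 1 for all 30 genes and was the lowest of the 6 early libraries for 28 of them. Their median log2 fold change at 2 weeks was -0.25, and with 1 early library left out it ran from -0.46 (without library 34) to -0.03 (without library 35), with -0.38 without library 33 and -0.31 without library 32. For the genes made by other cells, library 35 was the highest early library for C3ar1, C5ar1, F3 and F13a1.

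The effect of NICD1/Akt differed between stages for 12 members, in a fit of all 12 libraries: 10 had a lower effect at 3 than at 2 weeks, where 15.8% of all genes did, and 2 a higher one, where 15.0% did. The higher ones were C3ar1 (log2 difference 2.24, standard error 0.47, adjusted p = 0.00932) and F13a1 (2.67, standard error 0.83, adjusted p = 0.0348). Thbd (-2.25, standard error 0.36, adjusted p = 0.00293), Fga (-1.82, standard error 0.41, adjusted p = 0.0122) and Fgg (-1.64, standard error 0.38, adjusted p = 0.0124) had the lowest values, and the other 7 were F2, Kng1, F10, F9, Proc, F12 and Pros1, at -1.14 to -0.49. Of the 10, 9 were hepatocyte-made coagulation genes and the remaining one was Thbd; of complement genes only C3ar1 passed, and Masp2 (-1.003, adjusted p = 0.0514) and C8g (-1.08, adjusted p = 0.0537) missed the threshold narrowly. The calls of C3ar1, Thbd, Fga and Fgg held in all 20 alternatives other than the threshold. At a threshold of 0.01, 2 members were called, C3ar1 and Thbd. Between controls, 3 against 2 weeks, C3ar1 was lower (-1.76), and Thbd (1.38), Fga (1.41) and Fgg (1.26) were higher. Between NICD1/Akt livers only Thbd was called among them (-0.87), with C3ar1 at 0.48, Fga at -0.41 and Fgg at -0.38. Stage and sex by Ddx3y cannot be told apart in this comparison outside library 32. Leaving out library 35 raised the count of members from 12 to 28, of which 26 had a lower effect. Of 13948 genes, 3307 then had a higher and 3494 a lower effect. Of the 30 hepatocyte-made members 24 then had a lower effect. As only 14 of the 30 are coagulation genes, complement genes were among the 24. Leaving out any other single library lowered the count of members to 4 to 6, with 4 without the library labelled control early 32. 

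**Figure D4:**
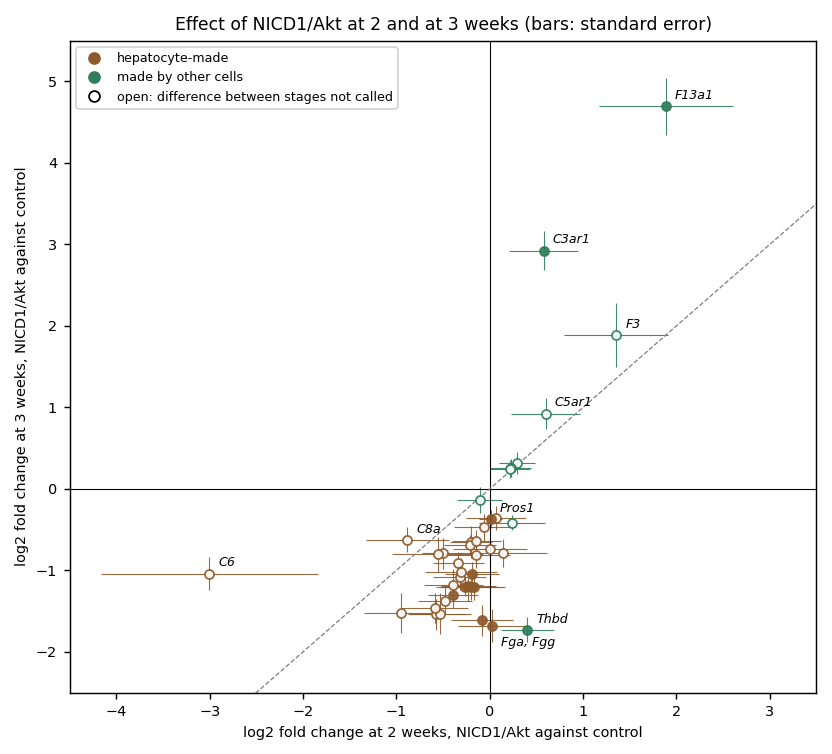
Log2 fold change of NICD1/Akt against control livers at 2 weeks (x axis) and 3 weeks (y axis) for the 40 tested members, with standard errors as bars and a dashed line of equal effects (hepatocyte-made genes brown, others green). Filled points are the 12 members whose difference between stages passed; C3ar1 and F13a1 lie above the line and Thbd, Fga and Fgg below it.

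The controls of both stages also differed from each other. Ddx3y was at 0 CPM in control libraries 30 and 31, 57.2 CPM in library 32 and 120.3 to 126 CPM in late controls. Stage and sex by this gene thus cannot be told apart here outside library 32. Between control livers at 3 and at 2 weeks, 7 members were higher (17.4% of all genes) and 5 lower (20.4%). Fga was at 14490, 15940 and 14350 CPM in late and 5974, 6230 and 4626 CPM in early controls (log2 difference 1.41, standard error 0.30, adjusted p = 0.00397). Fgg was at 8282, 9878 and 8448 CPM in late and 4011, 3996 and 3077 CPM in early controls (1.26, standard error 0.27, adjusted p = 0.00421). Thbd was at 51, 43.4 and 52.3 CPM in late and 20.2, 19.8 and 16.5 CPM in early controls (1.38, standard error 0.25, adjusted p = 0.00195). For these 3 genes no library labelled early control reached the lowest late one. Fgb, the third fibrinogen chain and no member, was higher as well (1.24). The other 4 higher members were C9 (2.39), C8b (1.75), C8a (1.27) and C5ar1 (1.06). Without the library labelled control early 32, the log2 difference was 4.88 for C6 (adjusted p = 4.46e-05), which with that library had 2.42 (adjusted p = 0.0532), and 3.12 for C9, 2.21 for C8b and 1.93 for C8a. F3 (1.92, adjusted p = 0.0343) and Mbl2 (-1.13, adjusted p = 0.0082) were then called as well, with 9 members higher and 6 lower. Of 14069 genes tested without that library, 2134 were higher and 2456 lower. The 5 lower members were C3ar1 (-1.76), C1qc (-1.08), C1qa (-1.03), C1qb (-0.97) and Cfp (-0.88). Between the same controls the macrophage markers Csf1r (-1.06) and Adgre1 (-1.33) were lower too.

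**Figure D5:**
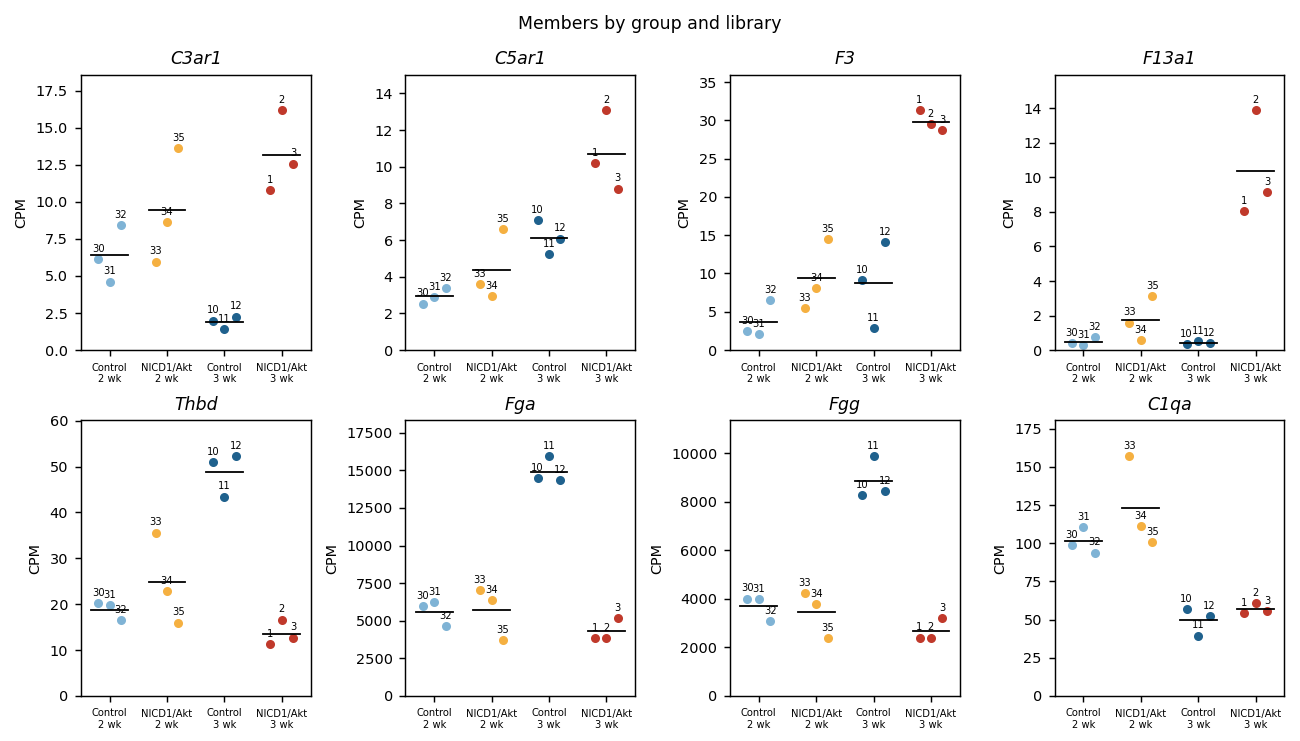
CPM of 8 members in each library (points with library numbers; bars, group means of 3 libraries; linear axes from 0). Late controls stand above all other groups for Thbd, Fga and Fgg and below them for C3ar1, and F13a1 is at 8.03 to 13.9 CPM in late NICD1/Akt livers against 0.288 to 3.11 CPM elsewhere.

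Between NICD1/Akt livers at 3 and at 2 weeks, 6 members were higher (11.1% of all genes) and 15 lower (17.4%). The higher ones were C6 (4.27), F13a1 (2.501), C9 (2.03), F3 (1.66), C8a (1.42) and C5ar1 (1.27). Ddx3y was at 0 to 0.399 CPM in the early and 52.2 to 61.2 CPM in the late NICD1/Akt livers. Stage and sex by this gene thus cannot be told apart in this comparison. Of the 15, 10 were hepatocyte-made and 5 made by other cells. Mbl2 was the hepatocyte-made gene with the lowest value (-1.70, standard error 0.32, adjusted p = 0.00434), and among genes made by other cells Cfp (-1.64, standard error 0.29, adjusted p = 0.00322) and the C1q chains (-1.17 to -1.05) fell. Fga (-0.41, adjusted p = 0.3) and Fgg (-0.38, adjusted p = 0.292) did not pass. The count rose from 21 to 37 without library 35 and dropped to 10, 11 and 12 without libraries 33, 34 and 2.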

How the data were processed

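Total RNA of liver samples was extracted with the Maxwell system, and stranded poly(A) libraries were sequenced. The authors deposited raw counts per gene in 2 tables, one per stage, with 21807 Ensembl gene IDs; replicates were not pooled. The study's methods name TrimGalore, STAR, HTSeq and mm10, whereas the notes on processing from the submitters list STAR 2.7, Subread 2.0.6 and GRCm39, so no gene coordinates are taken from the tables. IDs were paired with symbols through a table of gene IDs and names (21573 matched); 22 symbols stood on several IDs, none of them a member's. Samples were grouped by their labels.

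Counts were tested with edgeR 4.0.16 in R 4.3.3 (filterByExpr, TMM factors, glmQLFit, glmQLFTest), Benjamini-Hochberg over all genes tested, threshold 0.05. For the effect at 1 stage, the 6 libraries of that stage were fitted alone. The difference between stages, controls of 3 against 2 weeks and NICD1/Akt livers of 3 against 2 weeks came from 1 fit of 12 libraries in 4 groups. Standard errors are the size of the log2 fold change divided by the square root of F, and all tests were two-sided. Depth (13136892 to 19594839 counts) limits genes of few reads, such as Cfd and F13a1. Replicate libraries of a group differed by more than counting noise (chi-square per gene of 4.77 to 130), so none was counted as a duplicate.

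Members and gene lists were chosen with earlier results of these data known, and the motifs after the values were seen. Values in every library are given for up to 3 genes of each role with the smallest adjusted p at 3 weeks, for members not called or moving against their source group, and for those whose effect differed between stages; of other pathway genes, up to 4 per list with the smallest adjusted p are named. Alternatives were limma-voom (limma 3.58.1), DESeq2 1.42.0, the likelihood ratio test of edgeR, library size only, upper quartile and RLE factors, no filter, at least 1 CPM in 3 libraries, a threshold of 0.01, all 12 libraries in 1 fit, all 6 controls, and each library left out in turn. Protein sequences were not used here. Promoter windows came from RefSeq GRCm38.p6.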

Additional observations from a re-analysis of the deposited data

Results flagged for a closer look

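The effect of NICD1/Akt (against the controls of the same stage) differed between 3 and 2 weeks for 12 members by the test of the difference itself, edgeR's quasi-likelihood test over 12 libraries. The log2 difference, 3 weeks minus 2 weeks, was above 0 for the C3a receptor gene C3ar1 (2.24) and for F13a1 (2.67). It was below 0 for Thbd (-2.25), for the fibrinogen chains Fga (-1.82) and Fgg (-1.64), for prothrombin, F2 (-1.14), for Kng1 (-1.12), F10 (-1.08), F9 (-1.04), Proc (-1.03), F12 (-0.97) and Pros1 (-0.49). The adjusted p of these ran from 0.00293 (Thbd) to 0.0482 (F10). The controls of 3 and 2 weeks also differed for C3ar1 (-1.76), Thbd (1.38), Fga (1.41) and Fgg (1.26). Between NICD1/Akt livers, C3ar1 (0.48), Fga (-0.41) and Fgg (-0.38) were not called and Thbd was (-0.87). Stage and sex by Ddx3y cannot be told apart here outside library 32. The library labelled control early 32 and NICD1/Akt library 35 stood apart from their groups; the count was 4 without the first and 28 without the second, and 4 to 6 without any other 1 library.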

How the results depend on the processing

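At 3 weeks the count of members called was within 1.5 times the value reported (35) under every alternative tried, and 19 of the 35 calls held in all 16 alternatives other than the threshold. With library size only, 11 were higher (4 in the values reported) and 16 lower (31), while the calls over all genes moved from 5218 higher and 4432 lower to 9076 and 1287; with upper quartile factors 7 were higher. With library size only the sign turned for C2 (0.04), C4b (0.34), Masp1 (0.01), Cfb (0.23), Cfp (0.29), Cfi (0.06), C8a (0.07), Tfpi (0.56) and Pros1 (0.33), for the difference between stages of Pros1 (0.14) and for Pros1 between NICD1/Akt livers (0.05); with upper quartile factors it turned for Tfpi (0.01). By construction a factor that shifts all genes does this to small changes. Against all 6 controls it turned for C1qa (-0.41), C1qb (-0.43) and C1qc (-0.52), none of them called. C4b, not called here, was called lower in DESeq2, the likelihood ratio test and limma-voom, with RLE factors, against all 6 controls and without NICD1/Akt library 1 or 2, and higher with library size only.

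The count for the difference between stages moved most. It was 12 in the values reported (2 higher, 10 lower), 5 with library size only and 5 with upper quartile factors (3 lower in each), 7 with no filter (5 lower), 2 at a threshold of 0.01 (1 higher, 1 lower), and limma-voom called 1 higher. All genes called for this difference went from 2078 higher and 2180 lower to 3520 and 297 with library size only and to 2633 and 1124 with upper quartile factors. Between controls all genes called went from 2406 higher and 2816 lower to 1285 and 3058 with library size only and to 1630 and 3946 with upper quartile factors, and between NICD1/Akt livers from 1530 and 2402 to 3435 and 940 with library size only. Between NICD1/Akt livers the count of members went from 21 to 9 at 0.01 (5 lower). The cause of these moves was not tested.

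With 1 library left out at a time, members called at 3 weeks ranged from 33 to 36 (higher 4 to 5, lower 29 to 32), at 2 weeks from 0 to 0, for the difference between stages from 4 to 28 (higher 1 to 2, lower 3 to 26), between controls from 9 to 15 (higher 5 to 9, lower 4 to 6) and between NICD1/Akt livers from 10 to 37 (higher 4 to 7, lower 6 to 30). No paired analysis was possible because the groups share no replicate number. Depth limits the genes of few reads, Cfd and F13a1, and with 3 libraries a group small changes may be missed, most of all at 2 weeks.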
